A study of Homo sapiens with 10 samples.

Results

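The Larp7 and Hexim1 peak lists of HCT116, a human cell line established from a colorectal carcinoma, were compared site by site. All peaks on chromosomes 1 to 22 were taken, 182444 for Larp7 and 227631 for Hexim1, together 410075. The 5 lists analysed hold 688288 peaks when chromosomes X, Y and M are counted as well. A peak was called shared when a peak of the other list overlapped it by at least 1 bp, and Larp7-only or Hexim1-only otherwise. The series holds 10 ChIP-seq libraries of cultured HCT116 cells, with 1 library per antibody and no treatment named in the labels. ChIP-seq recovers and sequences the DNA crosslinked to a protein. Both libraries came from cells crosslinked with 1% formaldehyde for 10 min with 50 min of sonication, which gave DNA of 100 to 300 bp. The difference that the labels record is the antibody, Larp7 (Sigma av40847) or Hexim1 (Abcam ab25388), and other differences between the libraries are not known. The Pol II, KAP1 and Cdk9 lists were used as outside readouts, and the Input library and those for H3K27ac, H3K4me1, H3K4me3 and Ser5P Pol II were not analysed here. With 1 library a side there is no replicate check, so no test of a difference was made and every value describes these libraries. Intervals are exact 95% binomial intervals, or order-statistic intervals for medians, and cover counting error only. Read depth is unknown.

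Larp7 is an RNA-binding protein of the La family that stays on the 3′ end of the 7SK RNA and protects it from decay. Hexim1 joins the 7SK RNA and, once bound to it, inhibits the kinase P-TEFb, which consists of Cdk9 and a cyclin T. Larp7, 7SK and the capping enzyme Mepce form the stable core of the particle, the 7SK snRNP, whereas Hexim1 and P-TEFb are held in it reversibly. Released P-TEFb phosphorylates Pol II and its pausing factors, and Pol II then passes from the pause near a gene start into elongation. KAP1, the product of TRIM28, is a chromatin-bound co-regulator that has been reported to recruit the 7SK snRNP to promoters.

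Sequences of strong peaks of each class are shown first as examples, to give the sites behind the values. So few sequences do not describe their classes, whose composition over all peaks follows further on. The peaks were ranked by the −log10 p that the authors deposited, and the middle 200 bases, leaving out windows with UTR sequence, are printed from the plus strand of hg19, with CpG in capitals. The first pair are shared sites on the short arm of chromosome 21, next to the microRNA gene MIR3687 and to the pseudogene SOWAHCP2. Such short arms hold repeated sequence, so reads there may belong to other copies. The second pair are Larp7-only, 1 between genes with the pseudogene PIGCP2 as the nearest start and 1 in an intron of CFAP44. The last sequence is Hexim1-only and lies in an intron of FABP6, a bile acid carrier gene of the intestine.
Shared, MIR3687, chr21:9826375-9826574: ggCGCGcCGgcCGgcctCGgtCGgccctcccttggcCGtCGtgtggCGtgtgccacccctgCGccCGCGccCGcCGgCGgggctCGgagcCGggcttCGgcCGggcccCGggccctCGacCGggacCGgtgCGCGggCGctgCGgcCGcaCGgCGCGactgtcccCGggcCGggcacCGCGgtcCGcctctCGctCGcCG
Shared, SOWAHCP2, chr21:9922275-9922474: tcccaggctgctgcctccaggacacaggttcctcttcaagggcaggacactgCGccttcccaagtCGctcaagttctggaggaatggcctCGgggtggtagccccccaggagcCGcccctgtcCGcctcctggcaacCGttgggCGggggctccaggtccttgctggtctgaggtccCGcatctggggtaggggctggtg
Larp7-only, near PIGCP2, chr7:107483681-107483880: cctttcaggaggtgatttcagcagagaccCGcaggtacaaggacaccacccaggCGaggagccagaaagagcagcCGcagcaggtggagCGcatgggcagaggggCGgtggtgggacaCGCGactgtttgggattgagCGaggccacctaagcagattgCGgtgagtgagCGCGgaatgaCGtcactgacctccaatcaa
Larp7-only, CFAP44 intron, chr3:113059723-113059922: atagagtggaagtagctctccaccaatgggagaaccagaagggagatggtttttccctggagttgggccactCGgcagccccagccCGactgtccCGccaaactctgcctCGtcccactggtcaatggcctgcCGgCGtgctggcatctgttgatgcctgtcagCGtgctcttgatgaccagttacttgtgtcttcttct
Hexim1-only, FABP6 intron, chr5:159626435-159626634: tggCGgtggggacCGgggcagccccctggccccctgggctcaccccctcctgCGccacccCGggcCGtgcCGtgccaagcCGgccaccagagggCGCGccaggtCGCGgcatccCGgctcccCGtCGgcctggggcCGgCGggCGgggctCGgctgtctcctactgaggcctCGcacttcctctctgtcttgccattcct
The MIR3687 sequence holds 39 CpGs at 85% GC, and the SOWAHCP2 sequence holds 8 at 67.0% GC. The Larp7-only sequences hold 12 and 7 CpGs at 60.5% and 57.0% GC. The Hexim1-only FABP6 sequence holds 19 at 76.5% GC. A GC box (GGGCGG on either strand) lies in the SOWAHCP2, PIGCP2 and FABP6 sequences, and a CCAAT box (CCAAT on either strand) in the PIGCP2 and CFAP44 sequences.

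The same peaks show how unequal the classes are in strength. The best Larp7 peak was shared and lay at the start of DHX32, an RNA helicase gene, at chr10:127584284-127585584 with a −log10 p of 56.1 and a fold of 9.78. The matching Hexim1 peak spanned chr10:127584279-127585579 and was also the best of its list, with a −log10 p of 79.0 and a fold of 12.9. The fold is the authors' ratio of the peak over its background, and it is compared only within a list. The MIR3687 peak had a −log10 p of 52.5 at a fold of only 2.95, whereas the SOWAHCP2 peak had the highest fold of the Larp7 list, 13.9. In the Hexim1 list the highest fold, 19.1, belonged to a shared peak of 917 bp in an intron of NSFL1C, a cofactor gene of the p97 ATPase, which was second by −log10 p at 69.1. MAF1, which encodes a repressor of Pol III, had the next −log10 p of that list, 58.6, on a shared promoter peak of fold 16.8. Larp7-only peaks began much lower. The best 4 had a −log10 p of 13.5, 13.2, 13.2 and 12.9 and were 207 to 228 bp wide. They lay near PIGCP2 and in introns of CFAP44, CDH20, a cadherin gene, and MED27, a Mediator subunit gene, and none had a Pol II or KAP1 peak. The best 4 Hexim1-only peaks had a −log10 p of 29.9 at GTF3C3, which encodes a subunit of the Pol III factor TFIIIC, 23.3 at EFCAB7, 22 in FABP6 and 20.3 at KCTD14. All 4 overlapped a Pol II peak and none a KAP1 peak, and 3 of the 4 lay at a coding gene start.

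Most Larp7 peaks had Hexim1, and a smaller majority of Hexim1 peaks had Larp7. Hexim1 overlapped 125747 Larp7 peaks (68.9%, 68.7 to 69.1), and 56697 were Larp7-only. Larp7 overlapped 122527 Hexim1 peaks (53.8%, 53.6 to 54.0), and 105104 were Hexim1-only. In bases, 101093633 bp lay in both lists, which is 69.6% of the Larp7 length, 54.6% of the Hexim1 length and 44.1% of their union. The lists differ in length, since Larp7 peaks cover 5.04% of the autosomes and Hexim1 peaks 6.42%. With the Hexim1 list kept to as many peaks as the Larp7 list, an alternative added after seeing the data, the 2 shares came close to each other at 61.7% and 59.7%.

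Where both factors had a peak, the peaks mostly matched one to one. Of 130129 overlapping pairs, 108467 (83.4%) joined 1 Larp7 peak to 1 Hexim1 peak. The middles of such pairs were a median of 81 bp apart (quartiles 26 and 261), less than the longest fragments of 300 bp, and 73.9% were within 250 bp. Hexim1 peaks were wider in 58.4% of the pairs, by a median of 27 bp over all pairs. A shared Larp7 peak lay inside Hexim1 peaks over a median of 93.5% of its length, and 31.9% lay wholly inside. For shared Hexim1 peaks the median was 84.4%, and 18.3% lay wholly inside Larp7 peaks. Only 3.27% of shared Larp7 peaks and 5.41% of shared Hexim1 peaks met 2 or more peaks of the other list, up to 5 and 11. Across the one-to-one pairs the deposited folds of the 2 lists had a Spearman rho of 0.731, a description over 108467 pairs that share their cells, build and caller.

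Peaks of a single factor were narrow and weak. Shared Larp7 peaks had a median width of 628 bp (624 to 632) and Larp7-only peaks 247 bp (245 to 248). Shared Hexim1 peaks had a median of 716 bp (711 to 720) and Hexim1-only peaks 264 bp (263 to 265). A width under 300 bp was found in 60.4% of Larp7-only and 57.1% of Hexim1-only peaks, against 27.5% and 24.7% of shared ones. At the other end, the widest shared peaks reached 60914 bp for Larp7 and 79328 bp for Hexim1, and no single-factor peak was over 3557 or 4832 bp. The median Larp7 fold was 3.66 in shared and 3.04 in Larp7-only peaks, and the median Hexim1 fold was 3.96 in shared and 3.20 in Hexim1-only peaks. A −log10 q of at least 5, as deposited, was reached by 26.4% of shared Larp7 peaks and 35.7% of shared Hexim1 peaks, but by 1.31% of Larp7-only and 1.60% of Hexim1-only peaks. A wide peak is more easily overlapped by 1 bp than a narrow one, so width belongs to the rule that made the classes and is given as a description.

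**Figure D1:**
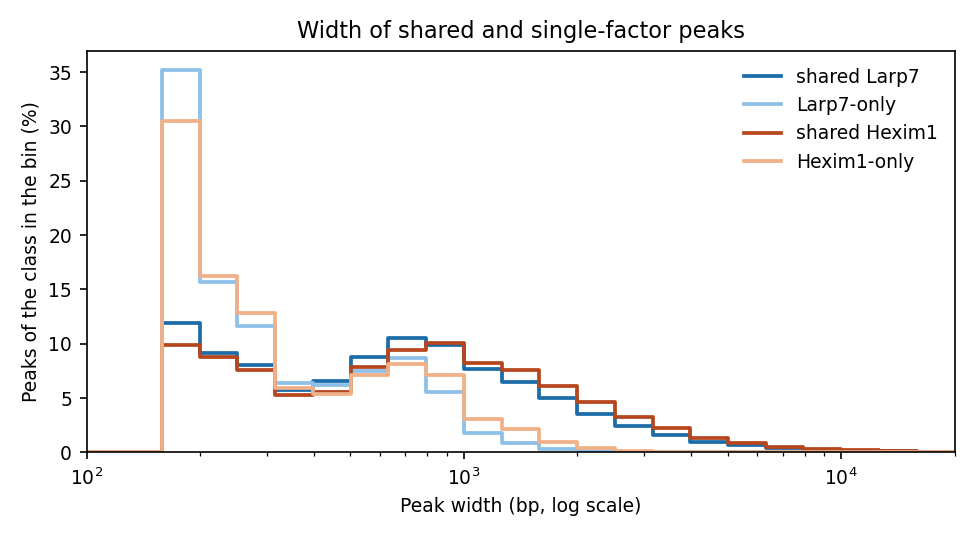
Widths of the 4 classes of autosomal peaks, with the peak width in bp on a log axis and the percent of each class per bin on the vertical axis. Single-factor peaks (light lines) pile up below 300 bp, with medians of 247 bp for Larp7-only and 264 bp for Hexim1-only, and shared peaks (dark lines) have medians of 628 and 716 bp.

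Sharing climbed with both fold and width. In the lowest decile of Larp7 folds 48.1% of peaks were shared (47.4 to 48.8), and in the highest decile 98.6% (98.4 to 98.7). For Hexim1 the shares ran from 26.2% (25.6 to 26.8) to 99.1% (98.9 to 99.2). By width, 42.9% of Larp7 peaks under 200 bp and 99.5% of those of 2000 bp or more were shared, against 27.4% and 96.4% for Hexim1. Fold kept its relation to sharing at a single width. Among peaks of at least 300 and under 400 bp the lowest decile of fold was shared in 44.6% for Larp7 and 25.1% for Hexim1, and the highest decile in 99.3% and 98.3%. Strong peaks of either factor were thus nearly all shared in these libraries, and the single-factor classes consist mostly of low-fold peaks.

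**Figure D2:**
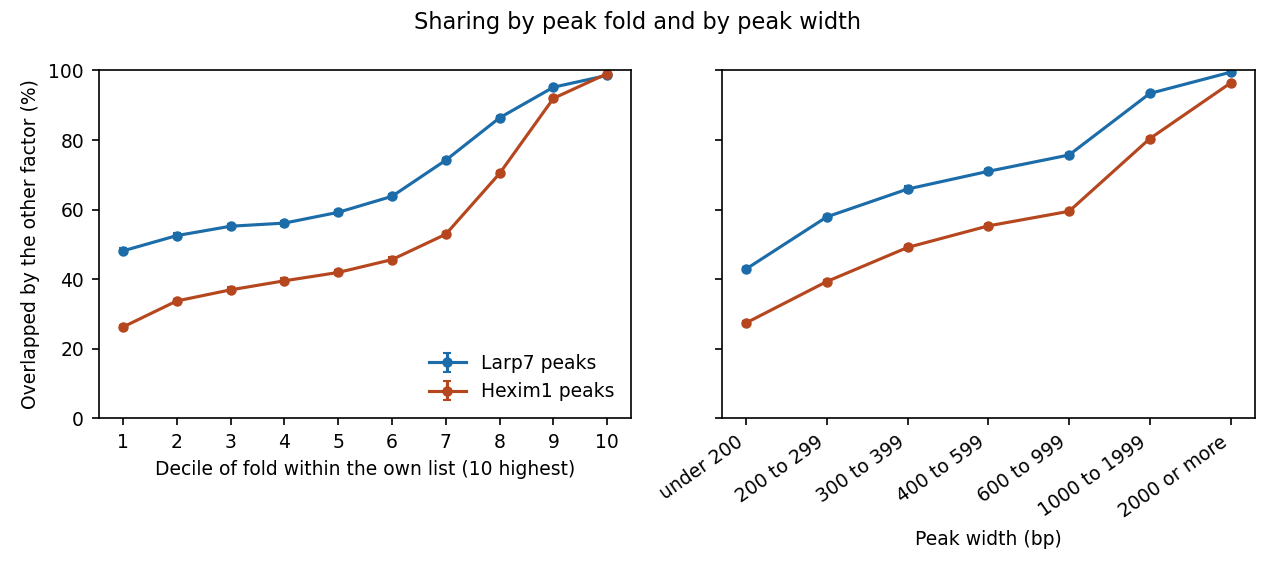
Percent of Larp7 peaks overlapped by Hexim1 (blue) and of Hexim1 peaks overlapped by Larp7 (red), by decile of the deposited fold within the own list (left) and by peak width in bp (right), with exact 95% intervals smaller than the points. Both lines climb, from 48.1% and 26.2% in the lowest decile of fold to 98.6% and 99.1% in the highest.

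The other factor was mostly some kb away from a single-factor peak. The gap from a Larp7-only peak to the nearest Hexim1 peak had a median of 3093 bp, and that from a Hexim1-only peak to the nearest Larp7 peak 3689 bp. A gap of at most 500 bp was found for 5.59% of Larp7-only and 3.35% of Hexim1-only peaks, one of at most 5 kb for 62.7% and 58.9%, and one of at most 20 kb for 89.3% and 89.1%. The same distances from other positions of the genome were not measured.

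Shared peaks were nearer to gene starts than single-factor peaks. Gene starts are the annotated 5′ ends of 61221 autosomal GENCODE genes of any type, and 19222 of them are coding. The middle of 14.6% of shared Larp7 peaks (14.4 to 14.8) and 14.5% of shared Hexim1 peaks (14.3 to 14.7) lay within 1 kb of a gene start, against 3.51% of Larp7-only (3.36 to 3.66) and 3.81% of Hexim1-only peaks (3.70 to 3.93). At coding gene starts the gap was wider, 8.97% and 8.87% of shared peaks against 0.489% of Larp7-only and 0.814% of Hexim1-only peaks. The median distance to any gene start was 9803 bp for shared Larp7, 16925 bp for Larp7-only, 10006 bp for shared Hexim1 and 14313 bp for Hexim1-only peaks. Larp7-only peaks were the most remote from coding genes, with 33.6% over 100 kb from a coding gene start, against 25.3% of Hexim1-only peaks and 19% and 19.4% of shared Larp7 and Hexim1 peaks. Within 1 kb of a start, 64.2% of shared Larp7 and 62.1% of shared Hexim1 peak middles lay downstream of it, against 50.0% and 46.9% of Larp7-only and Hexim1-only ones.

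**Figure D3:**
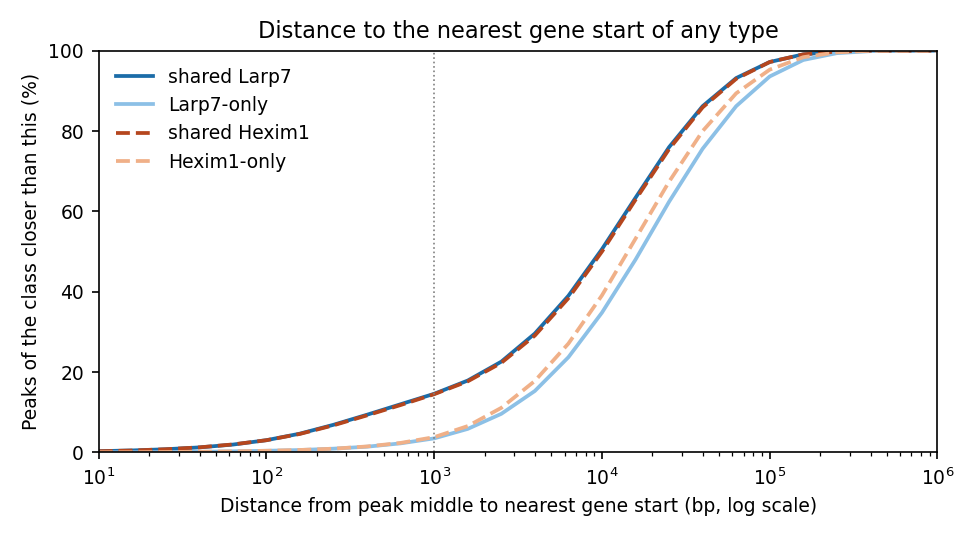
Cumulative percent of each peak class by the distance from the peak middle to the nearest gene start of any type, in bp on a log axis, with a dotted line at 1 kb. The lines of shared Larp7 and shared Hexim1 peaks lie on each other and reach 14.6% and 14.5% at 1 kb, and the Larp7-only line (3.51% at 1 kb) stays lowest.

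Seen by place, sharing was highest at coding gene starts and lowest in genes of other types. At coding gene starts 97.6% of Larp7 peaks and 92.7% of Hexim1 peaks were shared. In exons of coding genes the shares were 85.5% and 78.8%, in their introns 66.3% and 49.5%, between genes 63.4% and 48.9%, and in the bodies of other genes 59.5% and 46.1%. Introns of coding genes held the largest portion of every class, 42.5% of shared Larp7, 47.9% of Larp7-only, 42.9% of shared Hexim1 and 50.9% of Hexim1-only peaks. Exons held 9% and 8.52% of shared Larp7 and Hexim1 peaks, and 3.39% and 2.67% of single-factor ones. Places between genes held 25.8% of both shared classes, 33.0% of Larp7-only and 31.4% of Hexim1-only peaks.

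The classes also differed in sequence composition, which the overlap rule did not use. In the middle 500 bp, the median GC content was 54.4% in shared Larp7, 47.2% in Larp7-only, 53.8% in shared Hexim1 and 46.6% in Hexim1-only peaks, and 40.2% in 53684 evenly spaced autosomal windows of the same length. The median number of CpGs was 13, 8, 13 and 9 in the 4 classes and 3 in the even windows. Each class was thus above the autosomal level, and the single-factor classes were between it and the shared ones. The GC box was found in 35.3% of shared Larp7 and 34.7% of shared Hexim1 windows, in 16.2% of Larp7-only and 16.5% of Hexim1-only windows, in 62.7% of windows at coding gene starts and in 6.62% of even windows. The ETS motif (CCGGAAG, both strands) was found in 4.76% and 4.66% of shared, 1.77% and 1.68% of single-factor and 1.20% of even windows, and the E-box (CACGTG) in 8.82%, 8.67%, 5.56%, 5.14% and 4.53% in the same order. AT-rich motifs went the other way. The TATA box (TATAAA, both strands) was in 15.7% and 16.4% of shared, 26.6% and 28.1% of single-factor and 43.1% of even windows. At coding gene starts the TATA box was in 14% of windows. The CCAAT box was in 44.6% of them, above its shares in shared and Larp7-only windows. The CCAAT box was in 33.5% of shared Larp7, 38.7% of Larp7-only and 54.4% of even windows, and the TCF motif (ATCAAAG) in 3.16%, 3.97% and 8.13%. The AP-1 motif (TGACTCA and its reverse complement) differed little, with 5.93%, 6.85% and 7.50%. These shares move with base composition, and a match is not a binding site.

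Pol II, KAP1 and Cdk9 were found mostly at shared sites. Pol II overlapped 25.4% of all Larp7 peaks, but 35.8% of shared ones (35.5 to 36.0) and 2.44% of Larp7-only ones (2.32 to 2.58). It overlapped 21.3% of all Hexim1 peaks, 35.9% of shared ones (35.6 to 36.2) and 4.22% of Hexim1-only ones (4.10 to 4.34). KAP1 overlapped 26.2% of all Larp7 and 21% of all Hexim1 peaks, with 37.1% and 37.4% of shared peaks and 1.93% and 1.97% of single-factor ones. Cdk9, the kinase that Hexim1 inhibits, overlapped 38.5% of all Larp7 and 33% of all Hexim1 peaks, 50.8% and 51.6% of shared ones, and 11.3% of both single-factor classes. All 3 of these factors met at 25.5% of shared Larp7 and 25.7% of shared Hexim1 peaks. They met at only 15 Larp7-only (0.0265%) and 69 Hexim1-only peaks (0.0656%). None of the 3 was present at 85.3% of Larp7-only and 83.9% of Hexim1-only peaks, against 39.8% and 39.1% of shared ones.

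**Figure D4:**
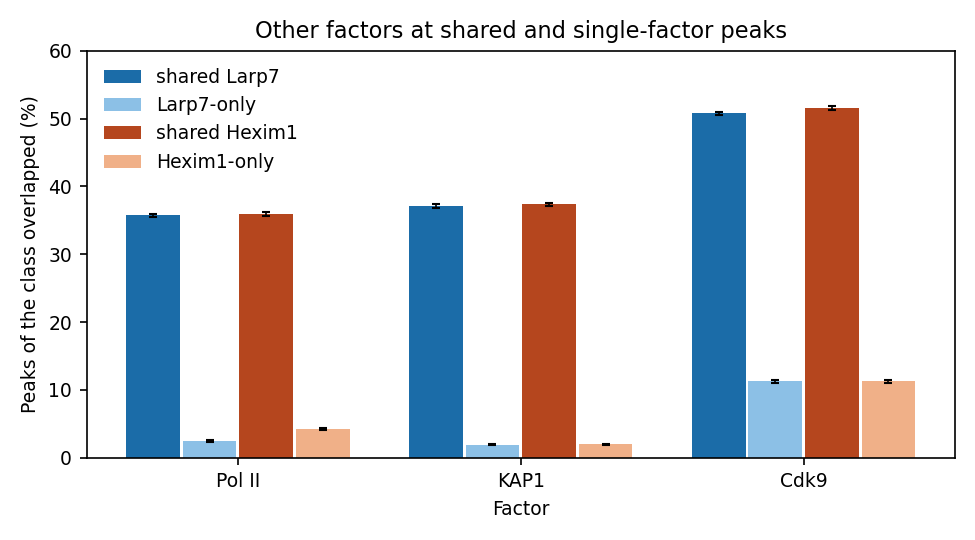
Percent of the peaks of each class overlapped by at least 1 bp by a Pol II, KAP1 or Cdk9 peak, with exact 95% binomial intervals as error bars. The bars of shared peaks stand at 35.8% to 51.6%, and those of single-factor peaks at 1.93% to 11.3%.

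These gaps were also seen at a fixed width and far from gene starts. Among peaks of at least 300 and under 400 bp, Pol II overlapped 26.6% of shared and 2.32% of Larp7-only peaks, and 25.0% of shared and 4.67% of Hexim1-only peaks. KAP1 overlapped 26.9% against 1.68% of them for Larp7 and 25.4% against 1.90% for Hexim1. Over 20 kb from any gene start, Pol II overlapped 24.0% of shared Larp7 and 1.30% of Larp7-only peaks, and 24.1% of shared Hexim1 and 2.16% of Hexim1-only peaks. Cdk9 overlapped 43.4% of shared Larp7 peaks there and 10.2% of Larp7-only ones.

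From the side of the other lists, peaks with both factors were the rule. Of 91692 Pol II peaks, 80.0% had both, 8.65% Hexim1 alone, 2.67% Larp7 alone and 8.66% neither. KAP1 peaks had both in 88.7% of cases, Hexim1 alone in 4.24%, Larp7 alone in 2.19% and neither in 4.86%. Cdk9 peaks had both in 59.5%, Hexim1 alone in 12.0%, Larp7 alone in 6.20% and neither in 22.3%, the highest share without either. Hexim1 alone was more frequent than Larp7 alone in each of the 3 lists, and the Hexim1 list is also the longer one.

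The comparison was repeated with every peak, of all 5 lists, cut to its middle and 250 bp on each side, which gives all peaks 1 width. The Larp7 share with Hexim1 then fell from 68.9% to 56.6% (56.4 to 56.9), and the Hexim1 share with Larp7 from 53.8% to 45.4% (45.2 to 45.6). The shared class shrank to 103312 Larp7 and 103309 Hexim1 peaks. Of the 79132 Larp7-only peaks after cutting, 29.1% overlapped Hexim1 as deposited, with middles too far apart, and of the 124322 Hexim1-only peaks 15.9% overlapped Larp7. Cutting brought the classes closer. Pol II was then at 31.0% of shared Larp7, 11.3% of Larp7-only, 31.0% of shared Hexim1 and 7.84% of Hexim1-only peaks, so that the order of the single-factor classes turned. KAP1 was at 31.7%, 9.15%, 31.5% and 4.90% of these classes, and Cdk9 at 43.6%, 18.6%, 43.4% and 13.9%. A gene start lay within 1 kb of 15.1% of shared Larp7, 6.02% of Larp7-only, 15.2% of shared Hexim1 and 4.94% of Hexim1-only peaks. The portions in introns of coding genes barely moved, at 41.6%, 47.5%, 41.7% and 50.7%. Shared peaks stayed ahead in each of these 4 readouts.

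At promoters the factors went together. Of the 19222 coding gene starts, 14410 (75%) had a peak of both factors within 1 kb, 953 (4.96%) of Hexim1 only, 281 (1.46%) of Larp7 only and 3578 (18.6%) of neither. Promoters with both had high folds, with a median of 4.85 for Larp7 (4.83 to 4.87) and 7.16 for Hexim1 (7.10 to 7.19). At Larp7-only promoters the median Larp7 fold was 3.12 (3.04 to 3.22), and at Hexim1-only promoters the median Hexim1 fold was 3.57 (3.47 to 3.65). Pol II was at 91.3% of promoters with both, at 48.8% of Hexim1-only promoters (45.6 to 52.0), at 7.83% of Larp7-only promoters (4.97 to 11.6) and at 4.81% of those with neither. KAP1 was at 87.4%, 10.2%, 3.56% and 0.615% of the same 4 groups, and Cdk9 at 91.4%, 23.4%, 17.1% and 2.88%. The contrast in Pol II between the single-factor groups rests on whole peaks. With Larp7 and Hexim1 peaks cut to the middle 500 bp, 854 promoters were Larp7-only and 63.9% of them had Pol II, against 58.3% of 1193 Hexim1-only ones. With a −log10 q of at least 5 in both lists, 232 were Larp7-only and 4084 Hexim1-only, with Pol II at 47.0% and 92.4%. Many single-factor promoters had the other factor close by, since Hexim1 lay within 2 kb of 41.3% of Larp7-only starts and Larp7 within 2 kb of 35.3% of Hexim1-only starts.

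The promoters that ranked highest in both lists belonged to genes of varied function. HMGXB4, which encodes an HMG-box protein, had a Larp7 fold of 8.87 and a Hexim1 fold of 17.6. SEPHS2, a selenophosphate synthetase gene, had 9.62 and 15.9, and HDGF, a growth factor gene, had 9 and 15.3. BORCS6, which encodes a subunit of a lysosome positioning complex, had 8.15 and 13.8. GLG1, a Golgi glycoprotein gene, had 7.81 and 13.6, and the sorting nexin gene SNX19 had 7.65 and 14.8. The divergent pair LRRC41 and UQCRH, the latter a subunit of respiratory complex III, shared 1 peak of 8.46 and 13.6. All 8 starts also had Pol II, KAP1 and Cdk9 peaks, with Pol II folds from 28.9 at HDGF to 109 at the LRRC41 and UQCRH peak. The middle 200 bases of the Larp7 peak are printed for HMGXB4, in its first intron, and for SEPHS2, in its coding sequence, beside the Larp7-only peak in the coding sequence of RSPH4A, a gene of the ciliary radial spoke. They are from the plus strand of hg19 with CpG in capitals.
HMGXB4, both factors, chr22:35653623-35653822: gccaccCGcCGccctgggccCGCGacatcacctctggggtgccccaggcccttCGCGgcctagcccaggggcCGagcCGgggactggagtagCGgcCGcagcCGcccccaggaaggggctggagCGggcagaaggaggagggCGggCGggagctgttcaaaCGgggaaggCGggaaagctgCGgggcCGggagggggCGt
SEPHS2, both factors, chr16:30456778-30456977: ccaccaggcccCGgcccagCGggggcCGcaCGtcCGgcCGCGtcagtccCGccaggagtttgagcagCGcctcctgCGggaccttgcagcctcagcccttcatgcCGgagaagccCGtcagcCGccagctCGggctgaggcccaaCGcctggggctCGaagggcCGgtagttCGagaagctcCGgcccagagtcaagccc
RSPH4A, Larp7 only, chr6:116937892-116938091: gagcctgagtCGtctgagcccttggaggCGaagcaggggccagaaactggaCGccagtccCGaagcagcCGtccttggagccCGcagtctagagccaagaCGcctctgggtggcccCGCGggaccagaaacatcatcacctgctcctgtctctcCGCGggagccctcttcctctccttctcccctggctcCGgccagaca
The HMGXB4 and SEPHS2 sequences each hold 19 CpGs, at 76.5% and 72.5% GC. The RSPH4A sequence holds 12 at 65.5% GC.

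Among the 8 Larp7-only promoters of the highest fold, 4 had Hexim1 within 2 kb. They were RNLS (7.75), a renalase gene, NMT1 (6.57), a myristoyltransferase gene, PPP1R17 (5.98), a phosphatase inhibitor gene, RSPH4A (5.97), HSH2D (5.85), the cytokine gene IL17B (5.72) and a single peak at CNTNAP4 and ENSG00000287694 (5.54). At RNLS, NMT1, HSH2D and IL17B the Larp7 peak itself overlapped a Hexim1 peak that ended outside the 1 kb window, and the Hexim1 fold within 2 kb was 7.31, 8.17, 6.13 and 5.22. At RSPH4A the nearest Hexim1 peak was 6214 bp away, at CNTNAP4 41855 bp and at PPP1R17 53487 bp. These 3 Larp7 peaks were 212 to 244 bp wide. Pol II was found at RSPH4A (4.99) and HSH2D (10.0) and at none of the others.

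The 7 Hexim1-only promoters described here, all of high fold, each carried Pol II. GTF3C3 had a Hexim1 fold of 11.6 and a Pol II fold of 30.1, and the nearest Larp7 peak was 7252 bp from its peak. EFCAB7 had a Hexim1 fold of 10.0 and a Pol II fold of 7.77, with Larp7 13013 bp away. In the other 5 the Hexim1 peak overlapped a Larp7 peak that ended outside the window, so the annotated 5′ end decides the call. They were NCOR1 (10.9), a corepressor gene, the kinase gene SRC (10.8), ETV5 (10.3), an ETS factor gene, PUM2 (9.89), an RNA-binding protein gene, and SF3B2 (9.82), a splicing factor gene. Within 2 kb their Larp7 folds ran from 5 at ETV5 to 7.15 at SF3B2. KAP1 was present at 1 of the 7, SF3B2, with a fold of 4.10.

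The genes of the 7SK snRNP and its partners had both factors at 12 of 13 starts, against 75% of all coding gene starts. The lists of genes were chosen with earlier results of these data known, so their counts are descriptions. With a −log10 q of at least 5 in both lists, Hexim1 only was at 5 of the 13 starts and Larp7 only at 0. With peaks cut to the middle 500 bp, Hexim1 only was at 1 and Larp7 only at 1. Hexim1 only was at 0 with promoters of 500 bp on each side or with lists of equal length. Of the core genes, the 7SK gene RN7SK had a Larp7 fold of 4.41 and a Hexim1 fold of 6.55, and MEPCE, the capping enzyme, had 4.49 and 7.52. The start of LARP7 itself had a Hexim1 peak of fold 2.96 and no Larp7, Pol II, KAP1 or Cdk9 peak within 1 kb. The inhibitor genes HEXIM1 and HEXIM2 had Larp7 folds of 4.33 and 4.42 and Hexim1 folds of 7.19 and 7.77. Among the P-TEFb genes, CDK9 had 5.44 and 7.95, CCNT2 had 3.82 and 7.43, and CCNT1 had the lowest pair, 3.23 and 4.27, with no Cdk9 or KAP1 peak. Among genes of factors that act on the particle, SRSF2, a splicing factor that releases P-TEFb from 7SK, had 7.44 and 16.1, the highest pair of the list. PPM1G, a phosphatase, followed with 7.16 and 10.1, and then TRIM28, the KAP1 gene, with 6.39 and 9.71. The helicase gene DDX21 had 4.19 and 5.96.

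Lists of elongation and inducible genes had both factors at nearly all starts and no start with 1 factor alone. Both were at 23 of 24 transcription elongation genes, led by Hexim1 fold by CDC73, a subunit of the PAF1 complex (Larp7 5.84, Hexim1 14.4), SUPT4H1, a DSIF subunit (5.93 and 12.8), AFF4, the scaffold of the super elongation complex (4.81 and 11.2), and NELFE, a pausing factor (3.99 and 10.5). Both were at 27 of 28 immediate early genes, led by the phosphatase genes DUSP5 (5.57 and 12.1) and DUSP1 (4.72 and 10.7) and the factor genes JUNB (5.39 and 11.3) and KLF6 (4.13 and 10.5). Heat shock and chaperone genes had both at 15 of 16, led by the chaperonin genes HSPD1 (5.30 and 13.5) and HSPE1 (5.31 and 10.9), the co-chaperone gene BAG3 (6.47 and 10.7) and HSP90AA1 (4.76 and 10.6). All 20 p53 targets had both, led by TP53I3 (5.25 and 14.0), FDXR, a ferredoxin reductase gene (8.24 and 12.3), RRM2B, a ribonucleotide reductase gene (5.40 and 10.8), and the death receptor gene TNFRSF10B (5.48 and 10.8). With a −log10 q of at least 5 in both lists, Hexim1 only was at 10 elongation, 4 immediate early, 7 heat shock and 5 p53 starts and Larp7 only at none of them, so the absence of single-factor starts does not hold at that threshold. With peaks cut to the middle 500 bp, Larp7 only was at 1 elongation, 4 immediate early and 1 p53 start, and Hexim1 only at 1 heat shock start. Larp7 only was at 1 p53 start with promoters of 500 bp on each side or with the Hexim1 list at the length of the Larp7 list, and Hexim1 only at 1 heat shock start with 2 kb on each side. The starts with neither in the full lists were ICE1, ATF3 and CRYAB, named after their values were seen. ICE1 and ATF3 had both factors within 2 kb of the annotated start, and CRYAB had Hexim1 alone there (2.65). The median Hexim1 fold over the starts with a peak was 6.80 for elongation, 8.84 for immediate early, 8.52 for heat shock and 9.13 for p53 genes, beside 7.16 over all coding starts with both factors. The median Larp7 folds were 4.34, 5.20, 4.51 and 4.83, beside 4.85.

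Hexim1-only starts were most frequent in 3 lists, those of ribosomal protein, histone and small RNA genes. Cytosolic ribosomal protein genes had both factors at 65 of 80 starts, Hexim1 only at 10 and Larp7 only at 0, beside 4.96% Hexim1-only of all coding starts. The both group was led by RPL36AL (5.93 and 13.8), RPS20 (5.54 and 11.5), RPS3 (5.55 and 11.3) and RPLP2 (5.39 and 11). The Hexim1-only starts of the highest fold were RPL36 (6.56), RPL21 (6.19), RPL27 (4.93) and RPS27A (4.62). All 4 of these had Larp7 within 2 kb, with folds of 4.66, 2.87, 3.24 and 3.10. Replication-dependent histone genes had both at 40 of 64 starts, Hexim1 only at 11 and Larp7 only at 1, H4C7 (3.41). The top 3 by Hexim1 fold, H2BC21, H2AC20 and H2AC21, share 1 peak (5.49 and 9.71), and H1-4 followed with 4.28 and 9.39. The Hexim1-only starts of the highest fold were H2BC5 (5.69), H4C1 and H3C1, which share a peak (5.59), and H2AC4 (5.18), each with Pol II.

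Small nuclear and other small RNA genes had both factors at 15 of 31 starts, Hexim1 only at 9, Larp7 only at 0 and neither at 7. Of all 61221 gene starts, 44.8% had both, 7.72% Hexim1 only, 3.55% Larp7 only and 43.9% neither. Of the both group, RNU6-8 (5.67 and 8.93) and RNU6ATAC (5.76 and 8.07) encode U6-type spliceosomal RNAs made by Pol III, RMRP (3.8 and 7.96) the RNA of RNase MRP, and RNY3 (5.71 and 7.88) a Y RNA. Hexim1-only starts were led by the U2, U5, U4 and Y RNA genes RNU2-2P (5.30), RNU5E-1 (5.17), RNU4-2 (4.07) and RNY1 (3.83). Pol II was at the first 3, with folds of 12.0, 110 and 43.6, and none had KAP1 or Cdk9. Larp7 lay within 2 kb of RNU5E-1 (4.62) and of none of the others. Genes of this list and of the histone list have near-identical copies, and the treatment of reads that map to several places is not given in the sources used here. The Hexim1-only counts also depend on the peaks kept, running over the alternatives from 6 to 10 for small RNA, 6 to 33 for ribosomal protein and 7 to 29 for histone genes.

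**Figure D5:**
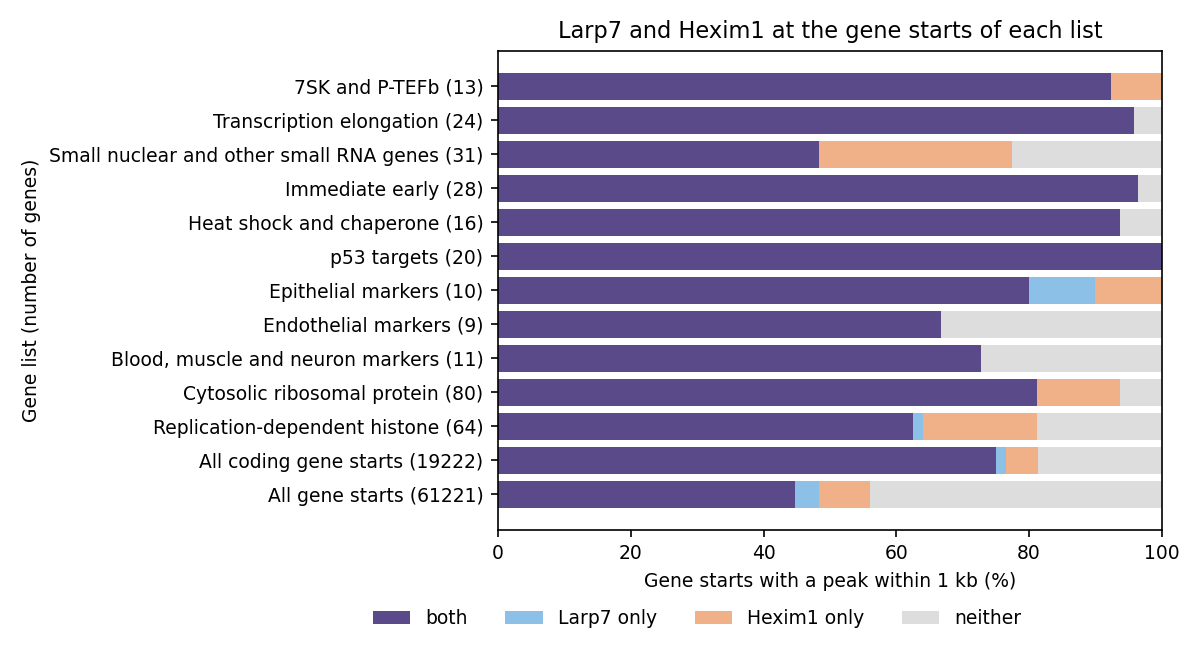
Percent of the gene starts of each list with both factors, Larp7 only, Hexim1 only or neither within 1 kb, with the number of genes in brackets. Both factors reach 100% of the 20 p53 targets and 48.4% of the 31 small RNA genes, beside 75% of all coding and 44.8% of all gene starts.

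Markers of cell types were used to check the labels, which call the cells colonic endothelial, whereas HCT116 is of epithelial origin. Epithelial markers had both factors at 8 of 10 starts, led by the intestinal factor gene CDX2 (6.21 and 8.94), the keratin genes KRT19 (5.80 and 8.01) and KRT8 with KRT18 (3.67 and 7.35), and Pol II at 8. CLDN4 had Hexim1 only (3.45) and CEACAM5 Larp7 only (2.73). Within 2 kb CEACAM5 had both (6.41 and 9.92), so its call depends on the annotated 5′ end, and CLDN4 still had Hexim1 only. Endothelial markers had both at 6 of 9, led by ESAM (4.83 and 6.54), KDR (5.31 and 6.18), ERG (5.59 and 5.71) and CDH5 (4.67 and 5.42), and Pol II at 3. TIE1 (3.27 and 3.47) and CLDN5 (5.93 and 3.84) also had both, and VWF, TEK and ROBO4 had none of the 5 factors within 1 kb. Within 2 kb ROBO4 had both (5.09 and 4.96), VWF had Larp7 alone (2.54) and TEK had neither. Markers of blood, muscle and neurons had both at 8 of 11, led by DES (7.89 and 7.80), CD14 (5.14 and 6.49), SYT1 (4.64 and 6.48) and SPI1 (4.48 and 6.31), and Pol II at 6. The shares with both were 80% for epithelial, 66.7% for endothelial and 72.7% for the other markers, beside 75% of all coding starts. Pol II was at 13150 of the 14410 coding starts with both factors (91.3%) and 465 of the 953 with Hexim1 only (48.8%). It was at 22 of the 281 with Larp7 only (7.83%) and 172 of the 3578 with neither (4.81%). Together these groups are the 19222 coding starts. The Pol II share over all of them together was not computed. With so few markers, the Pol II counts do not decide the label.

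Outside coding genes, starts with both factors were less frequent, and both Hexim1-only and Larp7-only starts were more frequent. Both were at 41.0% of 18229 lncRNA starts (40.3 to 41.7), and at 30.8% of those over 2 kb from a coding start. The shares with both were 28.9% for microRNA, 23.9% for processed pseudogene, 18.3% for miscellaneous RNA, 17.2% for snoRNA and 15.8% for snRNA genes as GENCODE types them. Hexim1 only was at 7.29% of lncRNA, 8.83% of microRNA, 14.1% of snoRNA and 15.0% of snRNA starts (13.4 to 16.7), where it was close to the share with both. Larp7 only was at 3.70% of lncRNA, 4.29% of microRNA, 6.68% of snoRNA and 5.35% of snRNA starts. Of coding starts, 4.96% had Hexim1 only and 1.46% Larp7 only.

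Single-factor peaks were common inside long genes. Of the peaks whose middle lay in a coding gene, 27.6% were Larp7-only and 43.7% Hexim1-only as shares of their own list. In the 1439 genes of 200 kb or more these shares were 39.2% and 51.7%. The most Larp7-only peaks lay in RBFOX1, a neuronal splicing factor gene of 2474 kb, with 57 of its 82 Larp7 peaks and 48 of its 74 Hexim1 peaks unshared. CSMD1 held 41 Larp7-only peaks of 67, DLGAP2, a synaptic scaffold gene, 40 of 182, and CAMTA1, a transcription activator gene, 39 of 147. The most Hexim1-only peaks lay in BCAS3 (59 of 122), CNTNAP2, a neuronal adhesion gene (59 of 86), CUX1, a homeobox gene (58 of 122), and KAZN (58 of 113). Over all coding genes there were 2.41 Larp7-only and 4.72 Hexim1-only peaks per 100 kb. Per 100 kb, RBFOX1 (2.3) and CSMD1 (1.99) were below the Larp7-only level, and CAMTA1 (3.96) and DLGAP2 (4.13) above it. For Hexim1-only peaks CNTNAP2 (2.56) was below, KAZN (4.73) level, and BCAS3 (8.25) and CUX1 (12.4) above. Of all 19222 coding genes, 9802 had a Larp7-only peak in the span, 12243 a Hexim1-only peak and 8687 both. These counts take no account of gene length.

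Sharing varied between chromosomes in both lists. Chromosome 19 had the highest shares, 81.1% for Larp7 and 66.9% for Hexim1, and also the most peaks, 174 and 193 per Mb. The lowest Larp7 share was on chromosome 18 (60.4%) and the lowest Hexim1 share on chromosome 4 (47.6%), beside medians of 67.9% and 52.2% over the 22 autosomes. Larp7-only peaks were densest on chromosome 19, at 32.9 per Mb, and Hexim1-only peaks on chromosome 17, at 69.3 per Mb, beside medians of 19.9 and 35.2.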

How the data were processed

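ChIP-seq peak lists of HCT116 cells were analysed, 1 library per antibody. The submitters' processing notes name hg19, Bowtie 1.1 and the peak caller MACS2 (version not given in the sources used here). Control, duplicate handling, calling settings and depth are likewise not given. Column 7 holds the fold of a peak over background, a ratio deposited by the authors, which was used only within a list. Columns 8 and 9 hold the −log10 of each peak's p and q as deposited. The deposited score of column 5 and the deposited summit offset of the Pol II list, a value of another kind, were not used.

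Overlaps, the nearest gene start and places were computed with Python 3.11.15, numpy 2.4.6 and pandas 2.3.3, and binomial intervals with scipy 1.17.1. They were checked on simulated peaks. Genes came from GENCODE release 44 on GRCh37. A peak was placed by its middle, in the order coding gene start (within 1 kb), start of another gene, coding exon, coding intron, other gene, between genes. Sequences were read from GRCh37. A count at a gene start needed a peak overlap of at least 1 bp within 1 kb of it. A RefSeq table served to match older gene symbols. The endothelial list matched 9 of 10 symbols and the small RNA list 31 of 36.

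Named promoters were the 8 with both factors and the best rank of the worse fold, and the 8 of highest fold with 1 factor only. Other names were the 4 genes with the most single-factor peaks of each kind, all 7SK and P-TEFb genes, and of every other list the 4 of highest Hexim1 fold and up to 4 starts with 1 factor. In each class the 4 peaks with the best −log10 p were also named. Some items that these rules take are not reported here. Results, lists and alternatives were chosen with earlier results of these data known. Alternatives were the middle 500 bp of each peak, a −log10 q of at least 5, 20000 peaks per list, an overlap of 50% of the shorter peak, a gap of up to 500 bp, peaks within 1 kb merged, chromosome X added, coding starts only, and promoters of 500 bp or 2 kb. Equal list length was added after seeing the data.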

Additional observations from a re-analysis of the deposited data

How the results depend on the processing

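Every value comes from 1 library a side, so agreement between alternatives says nothing on how a second culture would behave. No paired analysis was possible because each antibody has 1 library and the values come from no test between groups. Over 177 alternative values, 57 concern the main shares, widths and promoter counts, and 14 of these stayed within the main interval or 1.5 times the main count. The share of Larp7 peaks with Hexim1 (68.9%) was 56.6% with peaks cut to their middle, 82.4% with a −log10 q of at least 5 in both lists, 97.8% with it in the Larp7 list alone, 57.6% with 20000 peaks per list, 64.6% with an overlap of 50% of the shorter peak, 70.7% with gaps of up to 500 bp, 68.5% with peaks within 1 kb merged and 61.7% with lists of equal length. The share of Hexim1 peaks with Larp7 (53.8%) was 45.4%, 60.9%, 96.3%, 56.8%, 50.4%, 55.4%, 54.1% and 59.7% in the same order. For the 96.3% the q threshold was set in the Hexim1 list alone. With peaks cut to their middle, the gene-start share was 15.1% of shared Larp7, 6.02% of Larp7-only, 15.2% of shared Hexim1 and 4.94% of Hexim1-only peaks, and the Pol II share 31.0%, 11.3%, 31.0% and 7.84%. With a −log10 q of at least 5 in both lists the gene-start share was 34.3%, 10.1%, 33.9% and 24.6%, the Pol II share 83.8%, 30.2%, 83.9% and 55.9%, and the median width 1014, 305, 1170 and 716 bp. Hexim1-only then includes peaks whose Larp7 peak missed the threshold. With coding gene starts only, the gene-start share was 8.97%, 0.489%, 8.87% and 0.814%. Promoters with both factors numbered 9244 with a −log10 q of at least 5, those with Hexim1 only 4084, and those with Larp7 only 854 with cut peaks. Shared peaks kept the higher gene-start share with cut peaks, at the stricter q and with coding starts only, and the higher Pol II share with cut peaks and at the stricter q, where these were computed. The cause of the moves was not tested.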
